A study of Rattus norvegicus with 6 samples.

Results

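The cardiac calcium handling genes described here are Ryr2, Jph2, Trdn, Casq2, Hrc, Atp2a2, Pln, Cacna1c, Slc8a1 and Camk2d, 10 of the 15443 named genes on a rat expression array. They were taken as every non-control probe whose RefSeq accession belongs to one of these symbols, and the brightest probe stood for each gene. All 10 genes were on the array and were well above background on all 4 myocardial arrays, so no member was lost to a filter there.

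All material was from Sprague Dawley rats, 13 weeks old, and each of the 6 samples was read on a 1-colour array of its own. The study concerns ADSCs (stem cells derived from adipose tissue) loaded with 124I-HIB, a lipophilic iodobenzoate tracer for positron imaging, in the infarcted heart and in culture. Infarcted myocardium injected with 124I-HIB-labelled ADSCs gave 2 arrays, called treated 1 and treated 3 after the labels' replicate numbers. Infarcted myocardium injected with PBS gave 1 array and sham-operated myocardium, which had no infarct, gave 1 array. Labelled and unlabelled ADSCs in culture gave 1 array each. The labels give 21 days after sham operation for all myocardium, infarcted hearts included, and 14 days of culture for the cells. The labels do not say which wall or chamber was sampled, or whether the treated pair were separate animals. A p-value here therefore reflects only how far these arrays differ, and that spread may be technical.

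In a heart muscle cell each beat starts with calcium entry through the L-type channel, which opens ryanodine receptors of the sarcoplasmic reticulum and releases the calcium stored there. The cell relaxes when a pump returns that calcium to the store and an exchanger carries the rest out across the surface membrane. Buffering proteins inside the store, anchoring proteins at the junction between the membranes and a calcium-dependent kinase set how much calcium is released and how fast it is taken back, and reduced pump expression is a well known feature of the failing heart.

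The promoters of 5 members are shown to set beside the comparison of myocardium with cultured ADSCs described further on: Camk2d and Ryr2, which differed least by their brightest probes, Casq2 and Trdn, which were among the 4 that differed most, and Atp2a2, which lay between them. Each line is the RefSeq window of 300 bases in build GRCr8, from 250 bases before to 50 bases after the annotated start, read 5′ to 3′ on the gene's strand. Capitals mark the GC box GGGCGG on either strand (CCGCCC on the strand shown), with overlapping matches joined, as in Ryr2. Camk2d (chr2:217698301-217698600, plus strand), Ryr2 (chr17:63081277-63081576, plus strand) and Atp2a2 (chr12:39733269-39733568, plus strand) come first, then Casq2 (chr2:192214306-192214605, plus strand) and Trdn (chr1:26229550-26229849, minus strand).
Camk2d: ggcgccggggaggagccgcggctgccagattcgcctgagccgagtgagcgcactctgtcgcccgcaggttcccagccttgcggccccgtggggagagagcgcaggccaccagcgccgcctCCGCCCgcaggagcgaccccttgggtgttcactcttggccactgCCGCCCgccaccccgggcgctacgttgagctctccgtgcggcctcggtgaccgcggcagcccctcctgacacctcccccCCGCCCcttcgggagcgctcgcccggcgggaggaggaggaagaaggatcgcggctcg
Ryr2: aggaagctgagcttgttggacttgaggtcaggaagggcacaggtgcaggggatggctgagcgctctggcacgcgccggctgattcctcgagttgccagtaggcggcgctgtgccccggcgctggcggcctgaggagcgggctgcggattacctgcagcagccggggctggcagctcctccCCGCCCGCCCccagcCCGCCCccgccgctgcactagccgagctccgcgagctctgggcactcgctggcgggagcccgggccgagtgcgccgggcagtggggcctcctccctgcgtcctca
Atp2a2: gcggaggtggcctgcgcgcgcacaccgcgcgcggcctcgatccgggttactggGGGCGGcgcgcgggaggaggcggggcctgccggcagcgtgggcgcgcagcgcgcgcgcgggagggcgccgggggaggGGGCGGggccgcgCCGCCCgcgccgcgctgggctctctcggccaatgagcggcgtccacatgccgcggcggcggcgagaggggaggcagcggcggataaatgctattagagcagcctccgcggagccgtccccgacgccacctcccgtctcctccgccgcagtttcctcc
Casq2: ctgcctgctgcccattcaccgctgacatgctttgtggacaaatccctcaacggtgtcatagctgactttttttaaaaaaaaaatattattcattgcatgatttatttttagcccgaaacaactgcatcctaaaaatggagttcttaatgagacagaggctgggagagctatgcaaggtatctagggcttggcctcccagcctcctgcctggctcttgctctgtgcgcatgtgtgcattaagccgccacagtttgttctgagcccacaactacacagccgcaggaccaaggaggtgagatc
Trdn: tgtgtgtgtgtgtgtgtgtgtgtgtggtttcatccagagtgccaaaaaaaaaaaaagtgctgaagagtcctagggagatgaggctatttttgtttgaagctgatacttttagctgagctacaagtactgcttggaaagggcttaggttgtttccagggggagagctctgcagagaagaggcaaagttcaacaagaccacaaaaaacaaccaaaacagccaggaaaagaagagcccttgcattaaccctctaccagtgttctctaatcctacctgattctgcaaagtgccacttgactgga

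All 10 members had a window in the table, and 3 of them, Camk2d, Ryr2 and Atp2a2, held the GC box, with 3 matches each. The box was in 33.1% of the 33469 rat promoters in the table, so its share among the members was close to that of rat promoters at large. The windows of those 3 genes were 74.7%, 73.0% and 79.0% G or C with 36, 28 and 52 CpG dinucleotides, against a median of 51.7% and 7 CpG over all promoters. The other members ran from 36.3% in Slc8a1 to 58.0% in Jph2. Trdn had no CpG in its window, Hrc had 1, Pln and Cacna1c had 4, Casq2 and Slc8a1 had 6 and Jph2 had 10. A match in these letters is a description and not a site of binding.

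Values below are log2 processed signals minus each array's 75th percentile, so 1 unit is a 2-fold difference in signal and 0 is a signal at that percentile. Levels are compared between arrays for 1 probe, never between probes, since probes differ in how brightly they read. The arrays shared 1 slide and 1 scan date, 64.4% to 69.4% of probes were well above background on each, and no spot was saturated. The signal at the 75th percentile was 1276 and 1058 on the treated arrays, 1120 on the PBS array, 772 on the sham array, 2615 for labelled and 2360 for unlabelled ADSCs, so the sham array was the dimmest.

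The tissue label was checked against 13 ventricular and general cardiomyocyte markers on the array. All 13 were well above background on the 4 myocardial arrays, and 5 of them (Tnnt2, Tnni3, Tnnc1, Actc1 and Mb) were also well above background on both ADSC arrays. The defining markers Myh6, Myh7 and Myl2 were not well above background on either ADSC array. Their summed signal, in multiples of each array's 75th percentile, was 2359 and 2670 in treated, 2534.5 in PBS and 3419 in sham myocardium, and 1.98 in labelled and 1.93 in unlabelled ADSCs. The 8 atrial markers summed to 449.6 on the PBS array, against 165.3 and 142.3 on the treated arrays and 168.7 on the sham array. Of the 8, Myl7, Sln, Nppa, Mybphl and Bmp10 had their highest value on the PBS array, while Myl4, Kcna5 and Gja5 differed between PBS and sham by -0.23, -0.65 and 0.06. Myl7, an atrial myosin light chain, was at 2.02 and 0.83 in treated, 7.60 in PBS and -0.47 in sham myocardium.

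In infarcted myocardium 9 of the 10 calcium handling genes read lower than sham on each of the 3 infarcted arrays by their brightest probes, and Slc8a1 did not. The dimmer probes of Camk2d, Trdn and Atp2a2 were not lower on all 3 arrays, as given below. Those of Ryr2 and Cacna1c and the dimmest of Slc8a1 were. Differences by the brightest probes were small, at most 1.46-fold for the mean of the 3 arrays (Casq2), and none passed the test across all features. Across all 16941 features well above background on the 4 myocardial arrays, 34.3% were lower on all 3 infarcted arrays. Among the 1182 bright features, those at a mean level of 4 or more, the share was 64.7%, and all 5 members in that class (Atp2a2, Pln, Casq2, Hrc and Trdn) were among them. The median difference of the 10 members was -0.37, against -0.04 over all features and -0.21 over bright features. It was -0.27 on treated 1, -0.31 on treated 3 and -0.41 on the PBS array. The cardiomyocyte markers moved with the members: 11 of 13 were lower on all 3 infarcted arrays, with medians of -0.43, -0.33 and -0.47 on the same arrays. The marker median also depended on the scaling: it was -0.41 for the mean of the 3 arrays here and 0.00 after quantile normalization. The markers' part in the result was not tested, and in bulk tissue fewer cardiomyocytes and less RNA per cardiomyocyte cannot be told apart.

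**Figure D1:**
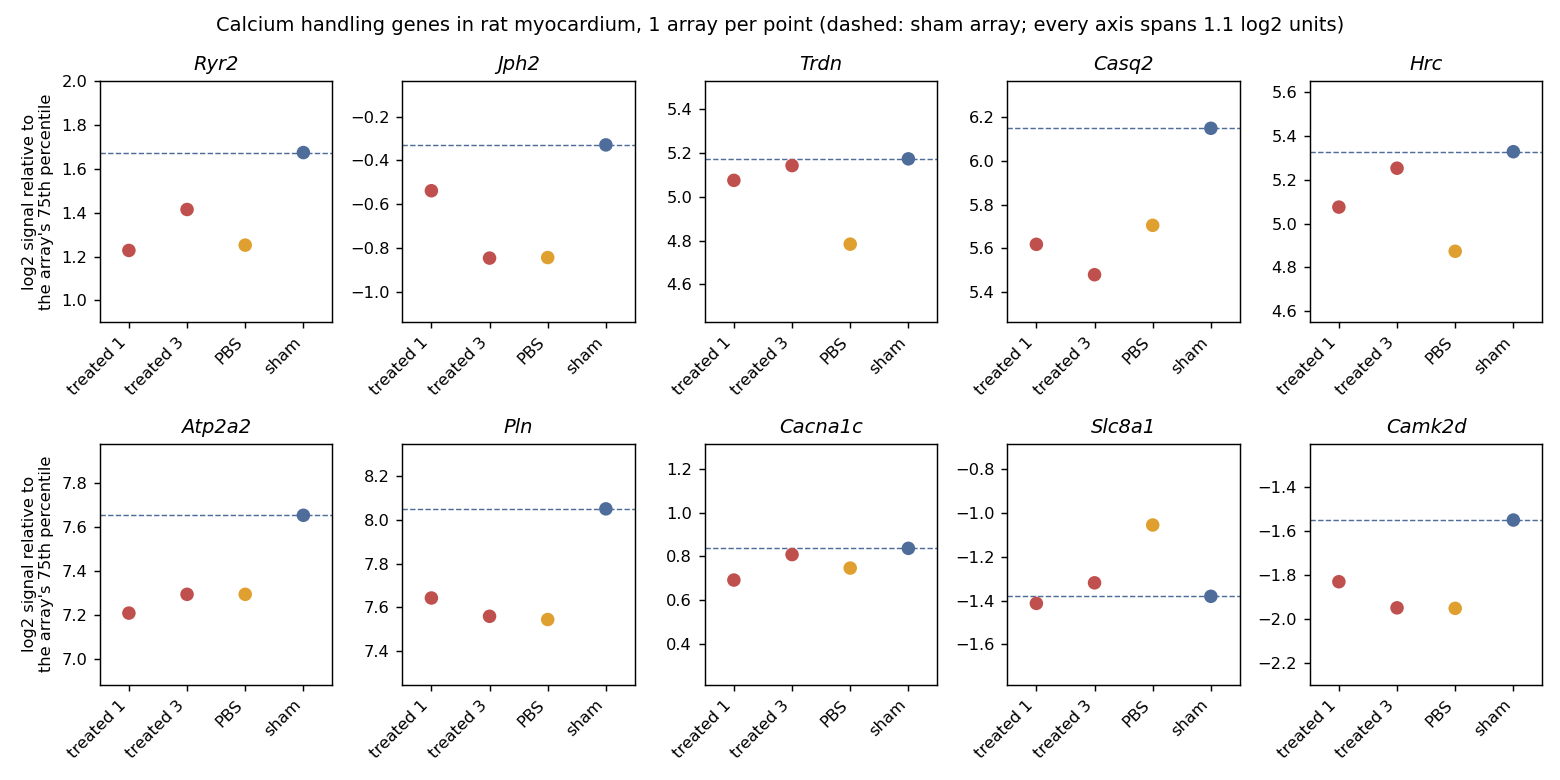
Level of each calcium handling gene (log2 signal relative to the array's 75th percentile) on the treated, PBS and sham arrays of myocardium, 1 point per array. The dashed line is the sham array, and every vertical axis spans the same 1.1 log2 units. Each gene is shown by its brightest probe, and the sham point is the highest in every panel except Slc8a1.

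Of the release machinery, Ryr2 encodes the ryanodine receptor through which the store empties. Its brightest probe, annotated to NM_001191043, was at 1.23 and 1.42 in treated, 1.25 in PBS and 1.68 in sham myocardium, so the sham array was above all infarcted arrays, which lay within 0.2 of each other. The infarcted mean was 1.30 ± 0.10 (SD, n = 3), a log2 difference of -0.38 from sham (SE 0.17, limma adjusted p = 0.652). The other Ryr2 probe, annotated to NM_032078, was at -0.29 and -0.04 in treated, -0.16 in PBS and 0.27 in sham myocardium. Its difference from sham was -0.44, so the probes ran the same way in myocardium.

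Jph2, junctophilin-2, ties the surface membrane to the store so that the L-type channel faces the ryanodine receptor. Jph2 was at -0.54 and -0.85 in treated, -0.84 in PBS and -0.33 in sham myocardium. Treated 1 lay nearest to sham, and treated 3 and PBS were nearly equal. The infarcted mean of -0.74 ± 0.18 (SD, n = 3) was below sham (log2 difference -0.41, SE 0.20, limma adjusted p = 0.677).

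Trdn encodes triadin, which anchors calsequestrin to the ryanodine receptor. Its brightest probe was at 5.08 and 5.14 in treated, 4.78 in PBS and 5.17 in sham myocardium. The PBS array was the lowest, and the treated arrays lay within 0.1 of sham. The dimmer Trdn probe ran the other way, at -1.88 and -2.34 in treated, -1.14 in PBS and -2.17 in sham myocardium, with PBS the highest. Both probes carry the same accession, so the files do not say which transcript each reads, and the direction of Trdn on the PBS array depends on the probe.

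Casq2, cardiac calsequestrin, is the main calcium buffer inside the store. It was at 5.62 and 5.48 in treated, 5.71 in PBS and 6.15 in sham myocardium. The sham array was above all 3 infarcted arrays, and the treated pair lay below PBS. The infarcted mean of 5.60 ± 0.11 (SD, n = 3) was 1.46-fold lower than sham, the lowest of the 10 differences (log2 difference -0.55, SE 0.17, limma adjusted p = 0.559).

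Hrc, a histidine-rich protein of the store that binds calcium, triadin and the pump, was at 5.08 and 5.25 in treated, 4.87 in PBS and 5.33 in sham myocardium. PBS was the lowest of the 4 arrays, the same order as for the brightest Trdn probe. The infarcted mean differed from sham by -0.26 (SE 0.21, limma adjusted p = 0.748).

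Of the uptake genes, Atp2a2 encodes SERCA2, the pump that refills the store, and splicing of this gene gives a muscle form (SERCA2a) and a widely expressed form (SERCA2b). The brightest probe, annotated to NM_001110139, was at 7.21 and 7.29 in treated, 7.29 in PBS and 7.65 in sham myocardium. Its 3 infarcted values lay within 0.1 of each other, all below sham, with a log2 difference of -0.39 (SE 0.15, limma adjusted p = 0.615). The other probe, annotated to NM_001110823, gave no such step: it was at 3.88 and 3.98 in treated, 3.84 in PBS and 3.94 in sham myocardium, a difference of -0.04. The files do not say which splice form each probe reads.

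Pln encodes phospholamban, the small membrane protein that restrains SERCA2 until it is phosphorylated. Pln was at 7.64 and 7.56 in treated, 7.54 in PBS and 8.05 in sham myocardium. The infarcted mean of 7.58 ± 0.05 (SD, n = 3) was 1.38-fold lower than sham (log2 difference -0.47, SE 0.15, limma adjusted p = 0.570). Pln and Casq2 were the only members with an unadjusted p under 0.05 in this comparison (0.0347 and 0.0314), where 3.59% of the 19603 features tested had one in the lower and 4.61% in the higher direction. No feature passed at an adjusted p under 0.05 in either direction (0% of 19603).

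Cacna1c encodes the pore of the L-type calcium channel. It was at 0.69 and 0.81 in treated, 0.75 in PBS and 0.84 in sham myocardium, and the lowest and highest of the 4 values were only 0.14 apart (log2 difference of the infarcted mean from sham -0.09, SE 0.15, limma adjusted p = 0.884). Its other probe differed from sham by -0.10.

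Slc8a1, the sodium-calcium exchanger NCX1 that removes calcium from the cell, was the exception to the lower levels. Its brightest probe was at -1.41 and -1.32 in treated, -1.06 in PBS and -1.38 in sham myocardium, so PBS was the highest and the treated arrays lay on either side of sham. The Slc8a1 probes disagreed. A dimmer probe annotated to NM_001270773 was at -1.76 and -1.84 in treated, -1.54 in PBS and -1.99 in sham myocardium. The dimmest, which carries the accession NM_019268 as the brightest does, was at -2.15 and -2.45 in treated, -2.30 in PBS and -2.01 in sham myocardium. The mean differences from sham of the 3 probes were 0.12, 0.28 and -0.29, so no direction can be given for the gene.

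Camk2d encodes the delta form of calcium/calmodulin-dependent kinase II, the main cardiac form, which phosphorylates the ryanodine receptor and phospholamban. Its brightest probe was at -1.83 and -1.95 in treated, -1.95 in PBS and -1.55 in sham myocardium, with sham above all infarcted arrays (log2 difference -0.36, SE 0.16, limma adjusted p = 0.642). The other Camk2d probe was at -2.13 and -1.92 in treated, -2.18 in PBS and -2.27 in sham myocardium, a difference of 0.19 in the opposite direction.

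**Figure D2:**
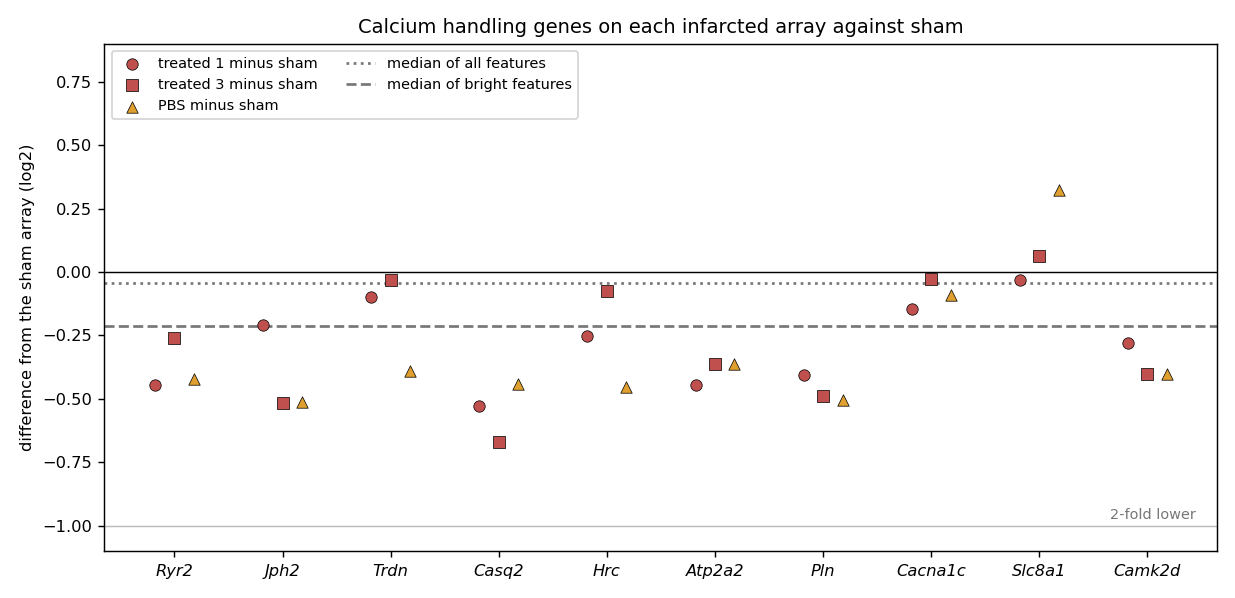
Difference of each calcium handling gene from the sham array (log2, vertical axis) on treated 1, treated 3 and PBS. The dotted and dashed lines are the medians over all features (-0.04) and over bright features (-0.21) for the mean of the 3 infarcted arrays. Each gene is shown by its brightest probe, and none reached the line for 2-fold lower.

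The size of the shift depended on how the arrays were scaled. After quantile normalization the median of the 10 members was -0.09, that of bright features -0.02 and that of the cardiomyocyte markers 0.00. There 5 members were lower on all 3 infarcted arrays, as were 29.1% of all features and 28.7% of bright features. The authors' deposited table gave -0.09 for the members, with 4 lower on all 3, as were 28.4% of all features and 29.1% of bright features. Ryr2, Jph2, Casq2 and Camk2d were lower on all 3 infarcted arrays in each of the 6 ways of processing tried. Their mean differences ranged from -0.41 to -0.31 in Ryr2, from -0.41 to -0.39 in Jph2, from -0.55 to -0.32 in Casq2 and from -0.38 to -0.08 in Camk2d. The 6 ways are not separate checks. Jph2 and Casq2 have a single probe each, so the median over probes repeats their main values. The deposited table lay close to quantile normalization (-0.41 and -0.40 in Jph2). For Camk2d the smallest came from the median over its probes. Its other probe was above sham by 0.14 and 0.35 in treated and 0.09 in PBS, so no direction can be given for Camk2d. The differences of Atp2a2, Pln, Hrc and Trdn were smaller after quantile normalization, at -0.01, -0.05, -0.12 and -0.04. All 4 are bright features, and the part of brightness in their differences was not tested. Quantile normalization gives features of the same rank the same value on every array. A feature that keeps its rank at the top of every array can therefore show no difference under it.

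**Figure D3:**
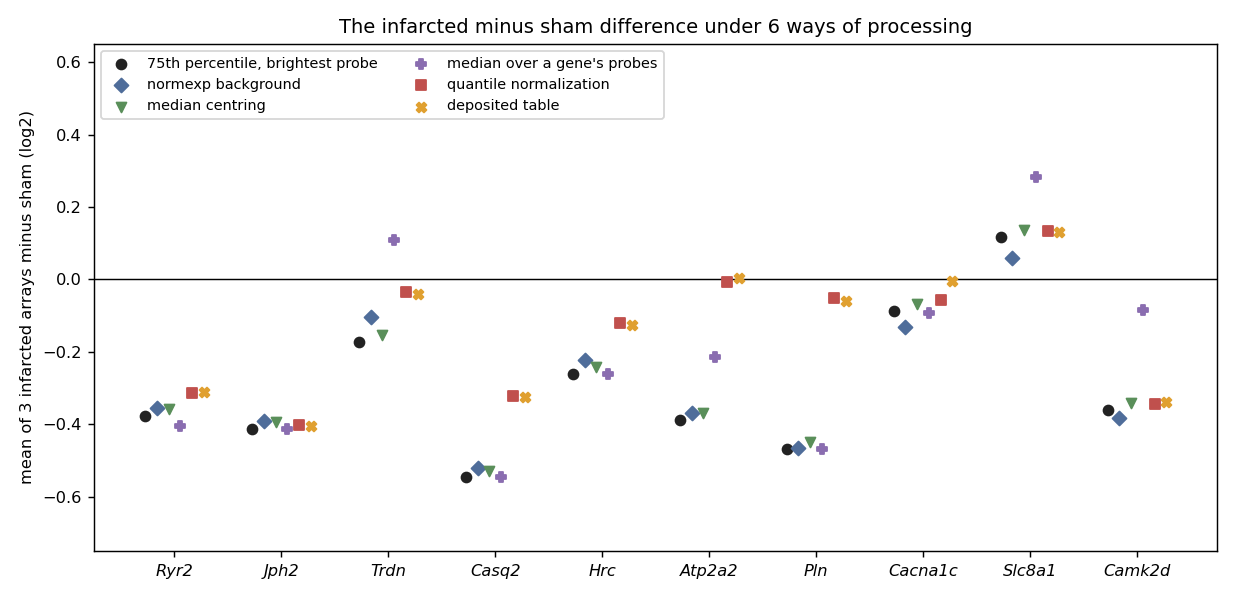
Mean of the 3 infarcted arrays minus sham (log2, vertical axis) for each calcium handling gene under 6 ways of processing, named in the legend. Jph2 stayed between -0.41 and -0.39, while Atp2a2 and Pln lay near 0 after quantile normalization and in the deposited table, and Trdn was above 0 when its probes were combined by their median.

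The PBS array alone was set against sham to ask what infarction with PBS injection did, with 1 array on each side and no test. No member was 2-fold apart by its brightest probe, where 2.23% of 17255 features were 2-fold higher and 1.44% were 2-fold lower. The dimmer Trdn probe was above sham by 1.03. By their brightest probes the members ran from -0.51 (Jph2) to 0.33 (Slc8a1) with a median of -0.41, and 9 of 10 were lower, against 55.5% of all features. The bright features had a median of -0.26 in the same comparison. Single members changed sign with the processing. Atp2a2 was at 0.12 after quantile normalization and 0.13 in the deposited table. Cacna1c was at 0.02 in the deposited table, and Trdn at 0.32 with the median over its probes.

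Treated myocardium was set against PBS to ask whether the injected cells changed the infarcted tissue. No calcium handling gene passed limma at an adjusted p under 0.05 in either direction (0% of the 19603 features did), none had an unadjusted p under 0.05, and 4.63% and 5.03% of features had one in the higher and the lower direction. Differences ran from -0.31 in Slc8a1 (SE 0.17, limma adjusted p = 0.667) to 0.32 in Trdn (SE 0.16, limma adjusted p = 0.651), with Hrc at 0.29 (SE 0.18, limma adjusted p = 0.708). The median was 0.06, against 0.01 over all features. Both treated arrays were above PBS for 4 members, where 38.6% of 17338 features were, and both were below it for 3, where 34.2% were. Trdn and Hrc were among the higher and Slc8a1 among the lower by their brightest probes. The dimmer Trdn probe ran the other way, with treated below PBS by a log2 difference of -0.96, so no direction can be given for Trdn. The NM_001270773 probe of Slc8a1 differed by -0.26, but the dimmest Slc8a1 probe differed by 0.0025, with treated 1 above PBS and treated 3 below it. The lower level of Slc8a1 therefore depended on the probe. The same PBS array held the high atrial markers, whose part in these differences was not tested. Atp2a2 and Cacna1c were closest to no difference, at -0.04 (SE 0.16) and 0.00 (SE 0.17).

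Treated myocardium against sham shared the sham array with the comparisons above and gave a median of -0.35, against -0.04 over all features. By their brightest probes 9 members were lower on both treated arrays, as were 42.3% of 17052 features. The lowest was Casq2 at -0.60 (limma adjusted p = 0.493) and the highest Slc8a1 at 0.01 (limma adjusted p = 0.981). Here too 0% of 19603 features passed.

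The cultured cells were set against the myocardium to ask which calcium handling genes the injected cells themselves express. Of the 10 members, 9 passed limma with a higher level in myocardium, where 35.7% of 21173 features did so and 33% passed with a lower level, and Camk2d did not pass. The differences spread over 3 ranges. Hrc, Casq2 and Pln were 2371-fold, 1723-fold and 1608-fold higher, and Trdn, which was well above background on 1 of the 2 ADSC arrays, is given below as measured signals. Atp2a2, Slc8a1 and Cacna1c were 84.4-fold, 19.1-fold and 7.97-fold higher, and Jph2 and Ryr2 were 2.69-fold and 2.24-fold higher by their brightest probes.

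Trdn was at 5.08, 5.14, 4.78 and 5.17 in myocardium (treated 1, treated 3, PBS and sham), against -6.38 in labelled and -6.58 in unlabelled ADSCs, where the unlabelled array was not well above background. The measured signals differed by 11.53 on the log2 scale (SE 0.16, limma adjusted p = 1.19e-07). The dimmer Trdn probe was not well above background on either ADSC array. Its measured means differed by 6.99, and it was at least 64.7-fold higher in myocardium, a bound explained below for Ryr2. Hrc averaged 5.13 ± 0.20 (SD, n = 4) in myocardium and -6.08 ± 0.16 (SD, n = 2) in ADSCs, a difference of 11.21 (SE 0.17, limma adjusted p = 1.48e-07). Casq2 averaged 5.74 ± 0.29 (SD, n = 4) in myocardium, against -5.25 in labelled and -4.77 in unlabelled ADSCs, a difference of 10.75 (SE 0.23, limma adjusted p = 4.02e-07). Pln averaged 7.70 ± 0.24 (SD, n = 4) in myocardium, against -2.82 in labelled and -3.09 in unlabelled ADSCs, a difference of 10.65 (SE 0.19, limma adjusted p = 2.09e-07). These proteins act in or on the calcium store of muscle, and each was at a low signal in the cells.

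Atp2a2 differed between its probes here as well. The NM_001110139 probe averaged 7.36 ± 0.20 (SD, n = 4) in myocardium, against 1.04 in labelled and 0.88 in unlabelled ADSCs, a difference of 6.40 (SE 0.16, limma adjusted p = 7.30e-07). The NM_001110823 probe was at 3.88, 3.98, 3.84 and 3.94 in myocardium, against 3.59 in labelled and 3.42 in unlabelled ADSCs. Its difference was 0.40 (SE 0.12, limma adjusted p = 0.0208 over 23508 probes tested singly), so this probe read ADSCs at a level close to that of heart.

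The Ryr2 probes disagreed most. The NM_001191043 probe averaged 1.39 ± 0.21 (SD, n = 4) in myocardium, against 0.30 in labelled and 0.16 in unlabelled ADSCs, a difference of 1.16 (SE 0.16, limma adjusted p = 0.000957). The NM_032078 probe was not well above background on either ADSC array and was at least 230-fold higher in myocardium (measured means differ by 8.84 on the log2 scale, limma adjusted p = 2.95e-07 over single probes). The bound sets the myocardial mean against the higher of the dim probe's own signal and the lowest signal among probes well above background on each ADSC array. Both probes place Ryr2 higher in myocardium, but whether ADSCs hold any Ryr2 RNA depends on the probe.

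Jph2 averaged -0.64 ± 0.25 (SD, n = 4) in myocardium, against -1.90 in labelled and -2.24 in unlabelled ADSCs (difference 1.43, SE 0.20, limma adjusted p = 0.000921). Cacna1c averaged 0.77 ± 0.06 (SD, n = 4) in myocardium, against -2.16 in labelled and -2.29 in unlabelled ADSCs (difference 2.99, SE 0.11, limma adjusted p = 3.67e-06). The other Cacna1c probe differed by 1.87. Slc8a1 averaged -1.29 ± 0.16 (SD, n = 4) in myocardium, against -5.28 in labelled and -5.81 in unlabelled ADSCs (difference 4.25, SE 0.19, limma adjusted p = 7.24e-06). The differences of its dimmer probes were 3.16 and 2.08, so all 3 probes placed the exchanger higher in heart.

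Camk2d was the member with the smallest difference. It was at -1.83, -1.95, -1.95 and -1.55 in myocardium, against -2.09 in labelled and -1.98 in unlabelled ADSCs, a difference of 0.21 (SE 0.16, limma adjusted p = 0.259). The lowest myocardial array lay just above the higher ADSC array, and the other Camk2d probe differed by 0.33. The promoters printed above can be set beside these sizes. By their brightest probes the 3 genes with a GC box, Camk2d, Ryr2 and Atp2a2, differed by 0.21, 1.16 and 6.40 on the log2 scale. The members without it that were measured on every array differed by 1.43 (Jph2) to 11.21 (Hrc), so the ranges overlap. The other probes of Camk2d, Ryr2 and Atp2a2 differed by 0.33, 8.84 and 0.40 in measured signal, so the order of the 3 depended on the probe.

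**Figure D4:**
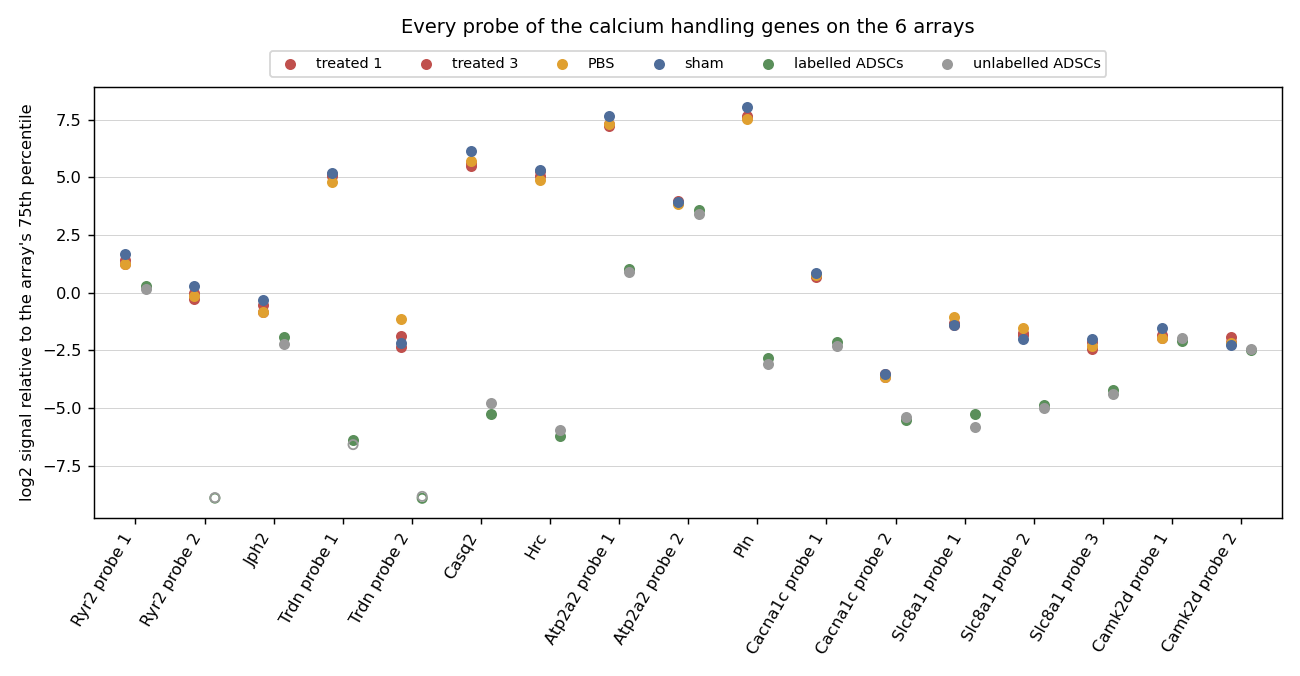
Level of every probe of the calcium handling genes (log2 signal relative to the array's 75th percentile) on the treated, PBS and sham arrays (left of each pair) and on the labelled and unlabelled ADSC arrays (right). Open circles are not well above background, and heights are not comparable between probes. The ADSC points of Camk2d and of Atp2a2 probe 2 lie close to the myocardial ones, while those of Trdn, Hrc, Casq2 and Pln lie far below.

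Labelling itself was examined in culture, with 1 labelled and 1 unlabelled array and no test. No member was 2-fold apart, where 0.449% of 18271 features were 2-fold higher and 0.591% were 2-fold lower in labelled cells. Of the 9 members well above background on both arrays, 6 were higher and 3 lower in labelled cells, against 43.9% and 56.1% of all features. The differences ran from -0.48 in Casq2 to 0.54 in Slc8a1 with a median of 0.15, against -0.04 over all features. Both extremes were genes with a low signal in the cells, and the dimmer Slc8a1 probes differed by only 0.15 and 0.16. Ryr2, Atp2a2 and Camk2d differed by 0.15, 0.16 and -0.11.

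The wider calcium pathway was read from 102 further genes in 8 lists, of which 91 were on the array and 81 were well above background on all 4 myocardial arrays. Among those 81, 30 were lower and 15 higher than sham on all 3 infarcted arrays, with a median difference of -0.06. The shares over all features were 34.3% lower and 24.9% higher. No gene of the 8 lists passed limma in infarcted against sham.

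In the list of voltage-gated channel subunits, 5 of 11 measured genes were higher and 3 lower than sham on all 3 infarcted arrays. The list also holds Rrad and Rem1, which regulate channels and are not subunits. Rrad was among the lower, with a mean difference of -0.83. Cacna1g, a T-type channel pore that is prominent in the developing heart and in pacemaking tissue, was at -2.34 and -2.46 in treated, -0.26 in PBS and -3.15 in sham myocardium. Cacna1h, the other main cardiac T-type pore, was at -0.09 and -0.53 in treated, 0.56 in PBS and -1.02 in sham myocardium. Cacna2d2, an auxiliary subunit, was at -4.86 and -4.87 in treated, -4.51 in PBS and -5.68 in sham myocardium. All 3 were above sham on every infarcted array and highest on the PBS array, which also held the high atrial markers, whose part in this was not tested. Their infarcted means were 1.46 ± 1.23, 1.00 ± 0.55 and 0.93 ± 0.20 above sham (SD, n = 3; limma adjusted p = 0.722, 0.665 and 0.474), while the L-type pore Cacna1c described above was at -0.09.

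Of the pumps and their regulators, 2 of 8 measured genes were lower and 2 higher than sham on all 3 arrays. Sln, sarcolipin, a relative of phospholamban that restrains the pump in atrium and skeletal muscle, was at -6.63 and -3.68 in treated, 4.69 in PBS and -7.45 in sham myocardium. It was well above background on PBS and treated 3 alone, and PBS was at least 2730-fold above sham. Sln is itself 1 of the atrial markers. Atp2a1, the fast skeletal muscle pump SERCA1, was at -3.62 and -3.99 in treated, -2.90 in PBS and -3.93 in sham myocardium, so it too was highest on the PBS array.

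Of the partners of the release channel, 4 of 12 were lower and 1 higher than sham on all 3 arrays. Fkbp1b, which binds and steadies the ryanodine receptor, was the one higher, at -2.74 and -2.34 in treated, -2.55 in PBS and -3.29 in sham myocardium (mean difference 0.74 ± 0.20, SD, n = 3; limma adjusted p = 0.541). Tmem38b, a potassium channel of the store that balances charge during release, was at -1.57 and -1.75 in treated, -1.51 in PBS and -0.99 in sham myocardium (mean difference -0.63 ± 0.12, SD, n = 3; limma adjusted p = 0.533). Fkbp1b and Tmem38b moved apart on every infarcted array. Among the skeletal and other paralogs, Jph3, a junctophilin of nerve cells, was well above background on the PBS array alone, where it was at least 2.78-fold above sham.

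Of the genes of beta-adrenergic and phosphatase control, 9 of 16 were lower and 3 higher than sham on all 3 arrays. Adcy5, a main cardiac adenylyl cyclase, was at 0.84 and 0.76 in treated, 1.00 in PBS and 1.55 in sham myocardium (mean difference -0.69 ± 0.12, SD, n = 3; limma adjusted p = 0.512). Prkar1a, a regulatory subunit of protein kinase A, differed by -0.56 ± 0.30 (SD, n = 3; limma adjusted p = 0.680). Among the mitochondrial uptake genes 2 of 7 were lower on all 3 arrays. Vdac1, a channel of the outer mitochondrial membrane, was at 6.31 and 6.32 in treated, 6.08 in PBS and 6.78 in sham myocardium.

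The calmodulin, kinase and calcineurin list was balanced, with 4 of 12 lower and 4 higher on all 3 arrays. Mef2d, a transcription factor regulated by calcium signals, differed by 0.38 ± 0.13 and Ppp3r1, the regulatory subunit of calcineurin, by -0.34 ± 0.16 (SD, n = 3). Of the store-operated entry genes and chaperones, 5 of 10 were lower and 0 higher. Orai1, the pore of store-operated entry, differed by -0.32 ± 0.20 and Trpc6, a receptor-operated cation channel, by 0.19 ± 0.45, with treated 1 below sham and the other infarcted arrays above it.

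**Figure D5:**
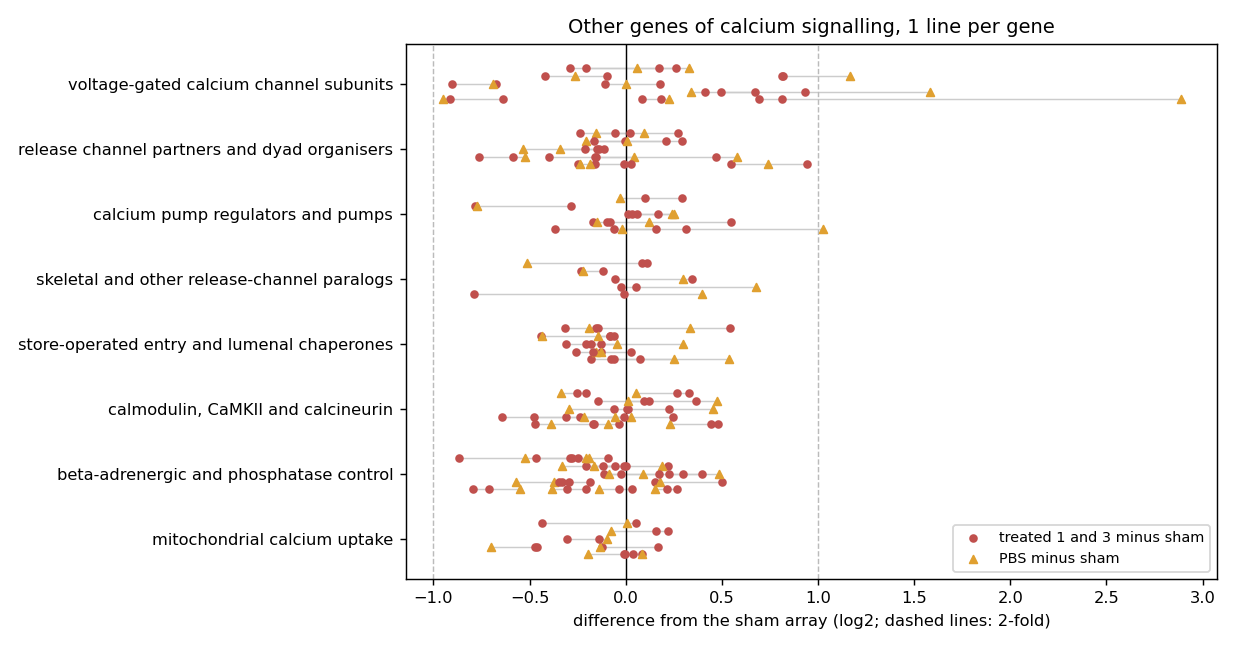
Difference from the sham array (log2, horizontal axis) of the 81 further calcium genes well above background on all 4 myocardial arrays, by list. Each grey line joins the treated arrays (circles) and the PBS array (triangle) of 1 gene, and dashed lines mark 2-fold. The triangles of Cacna1g, Cacna1h, Cacna2d2 and Atp2a1 lie beyond 2-fold to the right, and no point lies beyond 2-fold to the left.

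Between myocardium and ADSCs, 87 of the 91 genes were tested, and 45 passed with a higher and 19 with a lower level in myocardium, where 35.7% and 33% of all features did. All of the 12 genes that passed in the list of beta-adrenergic and phosphatase control were higher in myocardium. Among the partners of the release channel 8 passed with a higher and 4 with a lower level, and Fkbp1b, whose highest myocardial value was -2.34, against -0.88 in labelled and -1.09 in unlabelled ADSCs, was lower in myocardium (difference -1.74, limma adjusted p = 0.00144). The store-operated list ran the other way, with 2 higher and 5 lower in myocardium.

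The genes with the pattern most like a member's over the 6 arrays were found by root mean square distance after centring each gene, among 10435 named genes. For the brightest Ryr2 probe the nearest were Prkar2a at 0.05, Mrps16 at 0.06 and Rb1cc1 at 0.06 log2 units. For the brightest Atp2a2 probe the nearest were Chst7 at 0.10, Rbm38 at 0.12 and Reep1 at 0.13 log2 units. Most of this likeness is the step between myocardium and cells, and the genes share these arrays.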

How the data were processed

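Total RNA was labelled with Cy3 and hybridised to 6 rat arrays, per the labels' protocols. The authors deposited intensity values from the scanner, for which the submitters' processing notes name Agilent Feature Extraction (version 11.0.1.1). They also deposited log2 values in a table; how it was normalized is not stated in the labels or files. Its columns correlated with log2 scanner signals at 0.9998 or more, with a median of 8.85 for each myocardial and 9.67 for each cell array, so it served as an alternative within each set only.

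Control and outlier-flagged spots were left out, log2 processed signals were set relative to each array's 75th percentile and averaged per probe. Symbols came from matching accessions to a RefSeq table (GRCr8, which is newer than the build of the file headers and gave names and promoters only), which 18355 of 30367 probes did. A feature is a named gene (its brightest probe) or an unnamed probe.

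Tests used limma 3.58.1 (R 4.3.3; Benjamini-Hochberg adjustment) over all features that any array of the fit showed well above background. Residual degrees of freedom were 1 (treated, PBS and sham), 2 (infarcted and sham) and 4 (myocardium and ADSCs). Fits were tested on simulated data. The number of arrays limits the precision. Members and lists were chosen with earlier results of these data known. Genes named beside the members were those 2-fold from sham on PBS or on both treated arrays (at most 4 a list), otherwise the 2 largest differences of a list, and the 3 genes nearest to Ryr2 and to Atp2a2. Rrad and Rem1 were named outside this rule. A gene named by this rule is left out of the text. Figures used matplotlib. Alternatives covered background, scaling, probe choice, filters, the variance model and arrays left out.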

Additional observations from a re-analysis of the deposited data

How the results depend on the processing

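No count of members past limma or past 2-fold changed by over 1.5 times under any alternative, and no direction of a median reversed. The count over all features did depend on the setting. With normexp background some features passed in treated against PBS and in treated against sham. With the alternative variance model (trend and robust) some passed in treated against PBS. No member was among them. Normexp background gave 10 members past limma in myocardium against ADSCs (Camk2d 0.38, limma adjusted p = 0.0402), and 8 passed among features well above background on every array, where Trdn could not be tested. The medians moved as follows; the cause was not tested. With quantile normalization they were -0.19 (PBS minus sham), 0.00767 (treated minus PBS), -0.0694 (treated minus sham), -0.0895 (infarcted minus sham, 5 members lower on all 3 arrays) and 5.05 (myocardium minus ADSCs, 5.33 as reported over all 10 members). In the deposited table they were -0.19, 0.00793, -0.0627 and -0.0932 (4 members lower). Of all features, 29.1% with quantile normalization and 28.4% in the deposited table were lower on all 3 infarcted arrays. With the median over probes the member medians were -0.33, -0.18 (treated minus sham), -0.24 (infarcted), 0.0607 (labelled minus unlabelled) and 4.20. Median centring gave 0.10 (treated minus PBS), -0.32 (treated minus sham) and 5.37, and normexp gave 0.12 (labelled minus unlabelled) and 4.76. Leaving out each treated replicate gave 0.00860 to 0.0371 for treated minus PBS and -0.31 to -0.27 for treated minus sham. Leaving out any infarcted array gave -0.36 to -0.35 for infarcted minus sham, and leaving out any of the 6 arrays, 3 of those chosen after seeing the data, gave 5.15 to 5.50 with 9 members past limma each time. Single probes and the median over bright features were also added after seeing the data. Median centring shifts whole arrays and was not run for the limma counts, nor the deposited table, which holds fewer features. No paired analysis was possible because sham and PBS have 1 array each, so the groups share fewer than 2 replicate numbers. Disagreement between probes limits Slc8a1, Camk2d and Trdn in myocardium, and Jph2, Pln, Casq2 and Hrc each rest on a single probe. Low signals limit most store genes in ADSCs.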
